A study of Sus scrofa with 11 samples.

Results

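The 39 proteasome subunit genes described here are those with a pig symbol of the PSMA, PSMB, PSMC, PSMD, PSME, PSMF or PSMG series and at least 10 counts in 2 or more of 11 RNA sequencing libraries of porcine coronary artery. They are 39 of the 25880 gene identifiers counted, 14857 of which carry a symbol. By role, assigned from the symbol, they are 6 alpha-ring genes, 5 constitutive beta-ring genes, 3 immunosubunit genes and 6 regulatory ATPases. The others are 13 non-ATPase regulatory genes, 4 activators, 1 inhibitor and 1 assembly chaperone, PSMG3. PSMD10, a chaperone of the regulatory particle, is counted with the non-ATPase regulatory genes. Of 41 symbols of these series in the count tables, PSMA8, the testis form of an alpha subunit, had 1 count in all libraries together and PSMB11, the thymus form of a beta subunit, had 0, so both stayed below the minimum. PSMA6, PSMB5, PSMB6, PSMD2, PSMG1, PSMG2 and PSMG4 were not analysed here, because no counted identifier was matched to these symbols.

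The vessels were kept in a bioreactor, with native vessels as the control. Stented arteries under the stronger of the labelled flows gave 3 libraries (stented high-flow), and stented arteries without flow gave 2 (stented static). Arteries without a stent gave 2 libraries under the weaker flow (low-flow) and 2 under the stronger flow (high-flow), and uncultured native control arteries gave 2. The labels state no breed, age, flow rate, stent material or time in culture. They also do not say whether the libraries of a group came from separate pigs. The p-values therefore reflect the spread among the libraries alone, which may be technical. Both stented static libraries carry a d suffix of 3 and stented high-flow replicate 3 carries one of 7, whose meaning is not given. The label number 25 occurs on native replicate 2 and also on stented high-flow replicate 1.

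The proteasome is the barrel-shaped protease that degrades proteins tagged with ubiquitin. Its alpha rings (PSMA) form the gate and its inner beta rings (PSMB) hold the cutting sites, while the regulatory particle that caps the barrel unfolds substrates with its ATPases (PSMC) and binds and removes ubiquitin with its non-ATPase subunits (PSMD). Interferon-gamma induces PSMB8, PSMB9 and PSMB10, which take the places of the constitutive catalytic subunits PSMB5, PSMB6 and PSMB7 in the immunoproteasome, best known for cutting peptides that MHC class I molecules present. In the artery wall the immunoproteasome is known from leukocytes and from vascular cells exposed to interferon.

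Expression is given as CPM, a gene's counts per 1e6 counts of its library, on library sizes scaled by the trimmed mean of M-values (TMM). Changes are log2 fold changes ± standard error from edgeR's quasi-likelihood test across 15348 genes. A gene was called when its Benjamini-Hochberg adjusted p was below 0.05. The standard error was derived from that test, as the absolute log2 fold change divided by the square root of the F statistic. Library totals ran from 13496636 to 26785124 counts, and the Pearson correlation of log2 CPM between replicates was 0.932 to 0.979. CPM values of different genes are not comparable as levels, since they are not divided by gene length. Mitochondrially encoded genes took 3.19% to 8.65% of counts in cultured libraries and 10.3% and 10.7% in native ones. In bulk tissue, fewer cells of a type and less RNA per cell cannot be told apart.

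Proteasome genes moved in 2 directions between cultured and native arteries. In the mean of the 4 cultured groups, 6 of 39 members rose (PSMA5, PSMD6, PSMD10, PSMD11, PSMD14 and PSME3) and 5 fell (PSMB8, PSMB9, PSMC3, PSMF1 and PSMG3), which is 28.2% of members against 25.7% of all genes tested. The share of called members is thus near that of all genes. Sizes were small: 1 member, PSMB9, changed by more than 1 on the log2 scale, which is 2.56% of members against 31.3% of all genes. The members' median log2 fold change was 0.30, that of all genes was 0.02, and the interquartile ranges were 0.57 for members and 1.19 for all genes. For each of the 11 called genes the 9 cultured libraries did not overlap the 2 native ones. In all, 8 of 39 members were higher and 6 of 39 lower without overlap, as were 14.1% and 16.9% of all genes.

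These calls rested on both native libraries. Without native replicate 1, and likewise without native replicate 2, 0 members were called, while all genes were called at 10.6% and 10.7%. The 11 genes kept their directions there, with adjusted p (edgeR) of 0.109 to 0.319 without replicate 1 and 0.102 to 0.384 without replicate 2. PSMA5, PSMB9, PSMD6 and PSMD11 kept their calls when any 1 cultured library was left out. Without replicate 2 of stented high-flow, 6 members were called, against 22.8% of all genes. Leaving out a library of any other group leaves 1 in that group. Calls lost there cannot be told apart from lost precision.

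Scaling also set the balance of rises and falls. The TMM factors were 0.878 and 0.859 in native libraries and 1.158 and 1.156 in stented static ones. On library totals alone, a scaling added after the data were seen, 11 members rose and 1 fell, which is 30.8% of members against 29% of all genes (17% higher, 12.1% lower), and the median of all genes shifted to 0.28 in the cultured mean. PSMB9 was the member still called lower there, while PSMB8 (log2 fold change -0.66), PSMC3 (-0.30), PSMF1 (-0.38) and PSMG3 (-0.41) kept their sign but lost their calls. As a share of all counts, the members together took 0.251% to 0.284% in stented high-flow, 0.237% and 0.268% in stented static, 0.228% and 0.240% in low-flow, 0.303% and 0.304% in high-flow vessels, and 0.187% and 0.198% in native libraries. Every cultured library was above both native ones in this share.

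**Figure D1:**
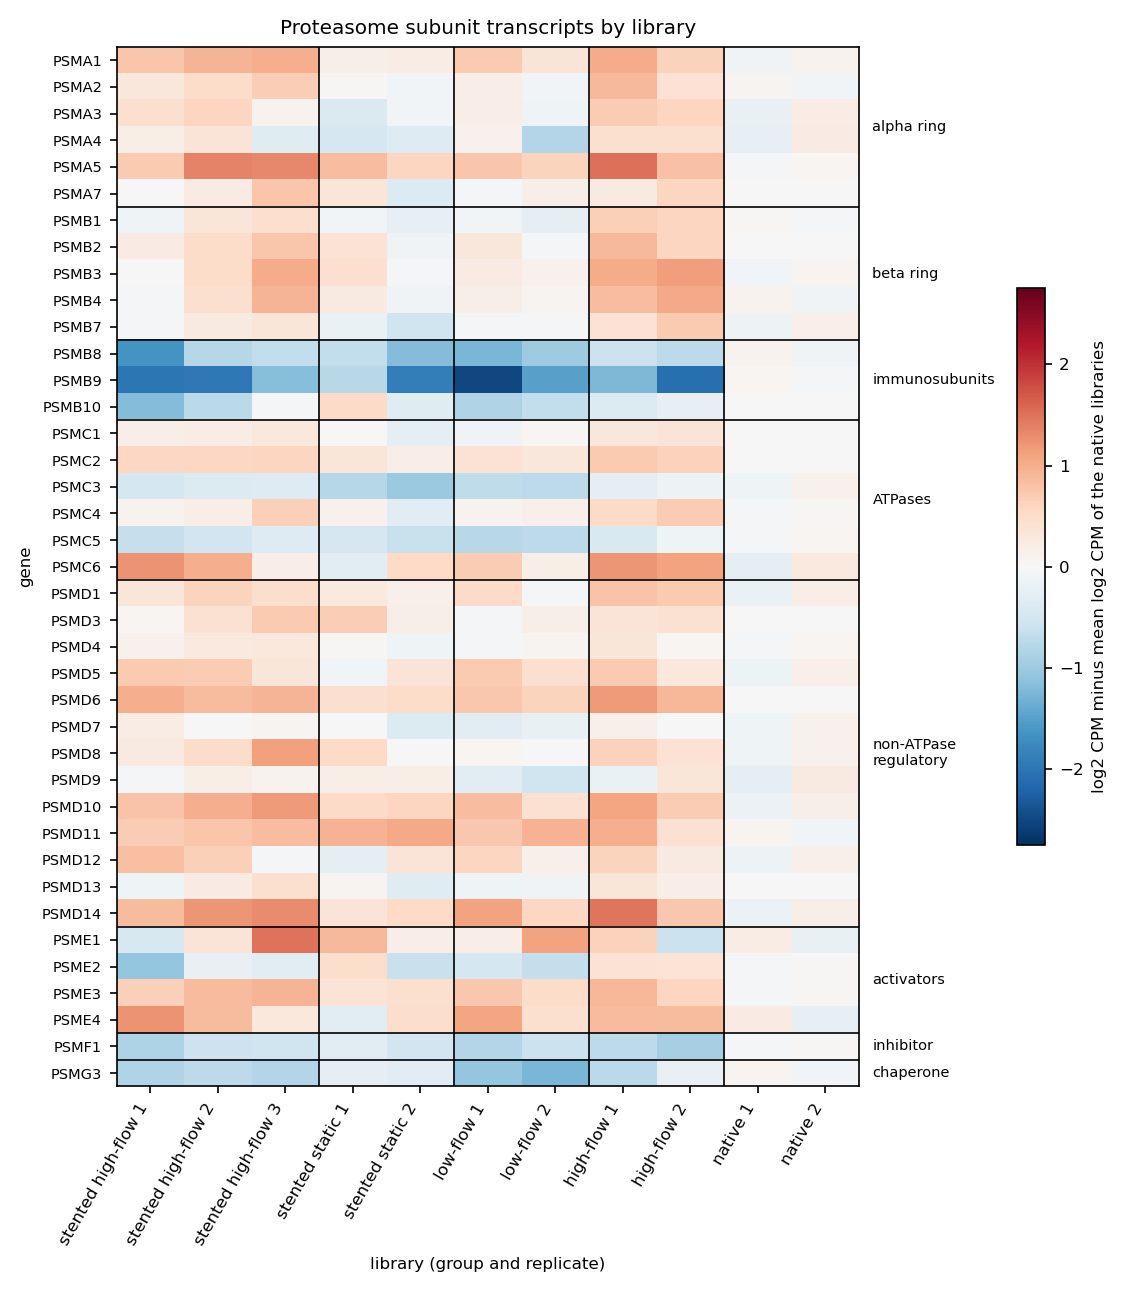
Log2 CPM of the 39 members (rows, by role) in each of 11 libraries (columns, by group) minus the mean of the 2 native libraries; red is above native and blue below. PSMB8 and PSMB9 are blue in all 9 cultured libraries, while PSMA5, PSMD6, PSMD11, PSMD14 and PSME3 are red in all of them.

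PSMB8, the immunosubunit that takes the place of PSMB5, lies at chr7:25058456-25061666 of Sscrofa11.1 (RefSeq, matched by symbol). PSMB9, which takes the place of PSMB6, lies beside it at chr7:25072133-25077508, in the MHC region, and PSMB10, which takes the place of PSMB7, lies at chr6:28544910-28547609. PSMB8 had 6.39, 11.7 and 12.7 CPM in stented high-flow, 12.6 and 8.76 in stented static, 8.39 and 10.1 in low-flow, 13.3 and 12.2 in high-flow vessels, and 21.7 and 18.7 in native libraries. All 9 cultured values were below both native values. PSMB8 fell by 0.92 ± 0.27 in the cultured mean (adjusted p = 0.0297, edgeR), and it lost the call without high-flow replicate 2 (adjusted p = 0.0572) or low-flow replicate 1 (0.0663). In single groups it missed the threshold, with log2 fold changes of -0.98 (stented high-flow), -0.92 (stented static), -1.12 (low-flow) and -0.66 (high-flow) and adjusted p of 0.0543, 0.128, 0.074 and 0.262 (edgeR).

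PSMB9 had the lowest fold change of the 39 members in every group. It stood at 1.65, 1.68 and 2.95 CPM in stented high-flow, 3.95 and 1.76 in stented static, 1.11 and 2.34 in low-flow, 2.85 and 1.54 in high-flow vessels, and 7.03 and 6.62 in native libraries. The highest cultured library, stented static replicate 1, was still below both native ones. PSMB9 fell by 1.64 ± 0.41 in the cultured mean (adjusted p = 0.0138, edgeR) and by 1.69 ± 0.52 in stented high-flow (adjusted p = 0.0371). The stented high-flow call was lost without stented high-flow replicate 1 (adjusted p = 0.0794) or replicate 2 (0.112). Its log2 fold changes were -1.24 in stented static, -1.97 in low-flow and -1.63 in high-flow, with adjusted p of 0.182, 0.0531 and 0.0872 (edgeR). DESeq2 called the low-flow and high-flow values.

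PSMB10 did not pass the test in any comparison. It had 5.96, 8.19 and 13.4 CPM in stented high-flow, 19.96 and 10.89 in stented static, 7.708 and 8.599 in low-flow, 10.5 and 11.7 in high-flow vessels, and 13.5 and 13.9 in native libraries. All stented high-flow, low-flow and high-flow values were below both native values, and the 2 stented static values lay on either side of them. The log2 fold change was -0.37 ± 0.32 in the cultured mean (adjusted p = 0.435, edgeR), -0.58 in stented high-flow, 0.17 in stented static, -0.75 in low-flow and -0.31 in high-flow.

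Ratios within a library do not depend on scaling between libraries. Relative to the summed counts of PSMB1, PSMB2, PSMB3, PSMB4 and PSMB7, PSMB8 stood at 2.03%, 2.83% and 2.51% in stented high-flow, 3.65% and 3.25% in stented static, 2.50% and 3.31% in low-flow, 2.55% and 2.19% in high-flow vessels, and 6.93% and 5.84% in native libraries. PSMB9 stood at 0.277% to 1.15% of the same sum in the 9 cultured libraries and at 2.25% and 2.07% in the native ones. Both ratios were lower in every cultured library than in either native one. These ratios were chosen after the files were seen, are compared between libraries only, and carry no test.

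Unlike PSMB8 and PSMB9, PSMB10 was not below both native libraries in the static vessels. It stood at 1.89%, 1.99% and 2.66% of the constitutive beta-ring sum in stented high-flow, 5.79% and 4.04% in stented static, 2.30% and 2.81% in low-flow, 2.01% and 2.09% in high-flow vessels, and 4.33% and 4.35% in native libraries. The 7 libraries kept under flow were below both native ones, and the static ones were on either side. Relative to PSMB7 alone, the subunit it replaces, PSMB10 had a mean log2 ratio of -3.16 over 9 cultured libraries and -2.63 over 2 native ones. That difference of -0.53 gave p = 0.327 in a two-sided exact permutation test over 55 splits, whose smallest possible p was 0.0182. The ratio was higher in both static libraries (26.4% and 18.8%) than in the native ones (17.5% and 14.8%), and lower in all the others (7.18% to 12.6%). The higher of the static values was in replicate 1, which also stood above replicate 2 in the summed markers of macrophages (3383 against 1567 CPM), lymphocytes (96.4 against 32.2), endothelium (2035 against 940.6) and adipocytes (2744 against 260.8). Their part in the PSMB10 value was not tested.

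**Figure D2:**
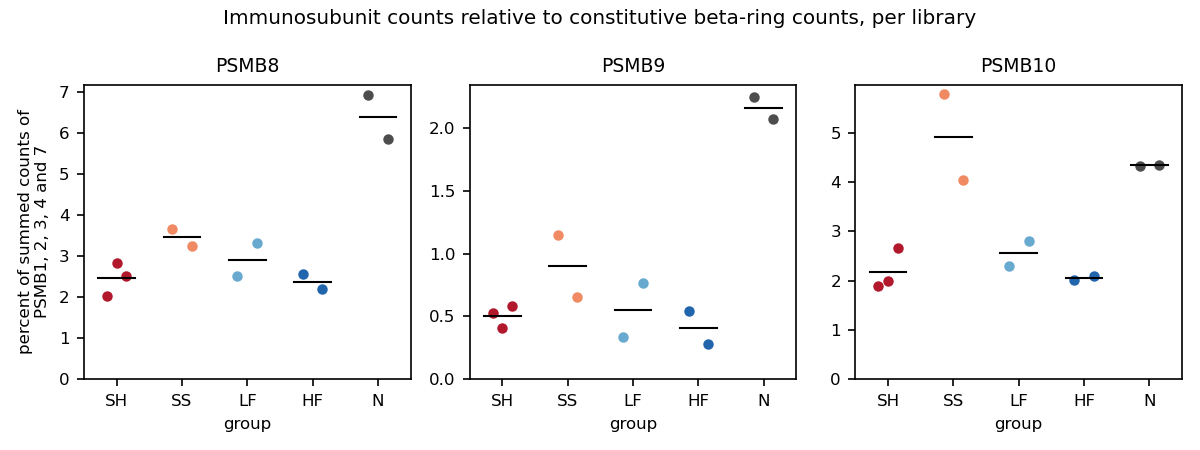
Counts of PSMB8, PSMB9 and PSMB10 as a percentage of the summed counts of 5 constitutive beta-ring genes, per library (points) with group means (lines); SH is stented high-flow, SS stented static, LF low-flow, HF high-flow and N native. PSMB8 and PSMB9 are below both native libraries in all cultured ones, whereas PSMB10 is at 5.79% and 4.04% in the static libraries, around the native 4.33% and 4.35%.

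Among the alpha-ring genes 1 of 6 rose in the cultured mean, against 9.79% of all genes called higher. PSMA5 (chr4:110695429-110717308), a subunit of the ring that gates the barrel, had 45.4, 70.8 and 69.2 CPM in stented high-flow, 49.8 and 41.4 in stented static, 46.5 and 42.0 in low-flow, 79.4 and 48.1 in high-flow vessels, and 26.5 and 28.6 in native libraries. Every cultured value was above both native values. PSMA5 rose by 0.95 ± 0.27 in the cultured mean (adjusted p = 0.0231), by 1.17 ± 0.30 in stented high-flow (0.0169) and by 1.21 ± 0.32 in high-flow (0.0281, all edgeR), and the stented high-flow call was lost without stented high-flow replicate 2 (adjusted p = 0.0573) and the high-flow call without high-flow replicate 1 (0.204). PSMA1, another alpha subunit, rose in stented high-flow by 0.90 ± 0.24 (adjusted p = 0.0202, edgeR), a call lost without stented high-flow replicate 2 (0.0599), with 67.3, 76.6 and 79.3 CPM there and 37.2 and 42.6 in native libraries. The other 4 alpha genes had log2 fold changes of -0.05 to 0.30 in the cultured mean and were not called.

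None of the 5 constitutive beta-ring genes was called in the cultured mean by edgeR, where they lay between 0.08 and 0.51. Of all genes, 25.7% were called there in either direction. PSMB3 (chr12:23347060-23357616), a structural beta subunit, was called in high-flow with a log2 fold change of 1.09 ± 0.33 (adjusted p = 0.0494, edgeR). It had 78.9 and 87.2 CPM in high-flow and 37.1 and 41.0 in native libraries, and the call was lost without high-flow replicate 1 (adjusted p = 0.133) or replicate 2 (0.151). PSMB7, the constitutive catalytic subunit that could be measured, was not called in any comparison. It had 82.9, 101 and 107 CPM in stented high-flow, 75.6 and 57.9 in stented static, 83.2 and 81.7 in low-flow, 112 and 141 in high-flow vessels, and 77.2 and 93.9 in native libraries, with log2 fold changes of 0.18, -0.36, -0.05 and 0.56 in the 4 cultured groups in that order.

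The ATPases, which unfold substrates, divided. PSMC3 (chr2:15185482-15191189) was the 1 of 6 called in the cultured mean, at a log2 fold change of -0.56 ± 0.18 (adjusted p = 0.0378, edgeR), against 15.9% of all genes called lower. It had 129, 139 and 141 CPM in stented high-flow, 104 and 88.6 in stented static, 110 and 110 in low-flow, 150 and 162 in high-flow vessels, and 166 and 194 in native libraries. The static libraries were the lowest, and the stented static change of -0.91 ± 0.23 was called (adjusted p = 0.0302, edgeR). The cultured-mean call was lost in 8 of 11 leave-one-out fits, all but those without stented static replicate 1 or replicate 1 or 3 of stented high-flow, and the static call in all 4. PSMC5 also lay below native in all 9 cultured libraries (-0.51 ± 0.18, adjusted p = 0.0621, edgeR), while PSMC2 lay above native in all 9 (0.47 ± 0.18, adjusted p = 0.0781). PSMC1, PSMC4 and PSMC6 had log2 fold changes of 0.10, 0.25 and 0.64 and overlapped native.

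Of 13 non-ATPase regulatory genes 4 rose in the cultured mean and none fell by edgeR's test. Of all genes, 9.79% were called higher and 15.9% lower. PSMD14 (chr15:68107379-68208884), the metalloprotease that cuts ubiquitin off substrates, had 42.9, 54.4 and 58.5 CPM in stented high-flow, 30.1 and 34.2 in stented static, 50.4 and 35.1 in low-flow, 65.8 and 39.5 in high-flow vessels, and 21.0 and 26.3 in native libraries. PSMD11 (chr12:42498711-42529853), a lid subunit known to promote proteasome assembly in human embryonic stem cells, had 51.5, 54.3 and 57.8 CPM in stented high-flow, 61.9 and 65.1 in stented static, 53.6 and 61.6 in low-flow, 63.5 and 42.3 in high-flow vessels, and 33.7 and 30.0 in native libraries. PSMD6, a lid subunit at chr13:45506334-45529481, had 33.9, 45.2 and 56.1 CPM as the lowest, median and highest of 9 cultured libraries, against 24.6 and 25.1 in native ones. All 3 genes were above native in every cultured library. PSMD11 had its highest value in stented static replicate 2, whereas PSMD6 and PSMD14 were lower in both static libraries than in any other cultured library.

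In the cultured mean PSMD14 rose by 0.90 ± 0.27 (adjusted p = 0.0307), PSMD11 by 0.84 ± 0.22 (0.0164) and PSMD6 by 0.79 ± 0.19 (0.0128, all edgeR). PSMD10 (gankyrin, chrX:88540261-88548593), a chaperone of the regulatory particle, rose by 0.77 ± 0.25 (adjusted p = 0.0425), with 13.1, 16.8 and 22.1 CPM as the lowest, median and highest cultured values against 8.73 and 10.8 in native libraries. Its call was lost in 7 of 11 leave-one-out fits (those without either native or either low-flow library, high-flow replicate 1, stented static replicate 2 or replicate 2 of stented high-flow) and that of PSMD14 in 4 of 11, low-flow replicate 1 (adjusted p = 0.0601) and stented high-flow replicate 2 (0.0514) being the cultured libraries for PSMD14. PSMD6 and PSMD14 also rose in high-flow, by 1.05 ± 0.24 and 1.15 ± 0.32 (adjusted p = 0.0144 and 0.0356, edgeR), calls lost without high-flow replicate 1, where the values were 0.92 (adjusted p = 0.0918) and 0.74 (0.247). The other 9 genes of the class had log2 fold changes between -0.07 and 0.46 in the cultured mean.

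**Figure D3:**
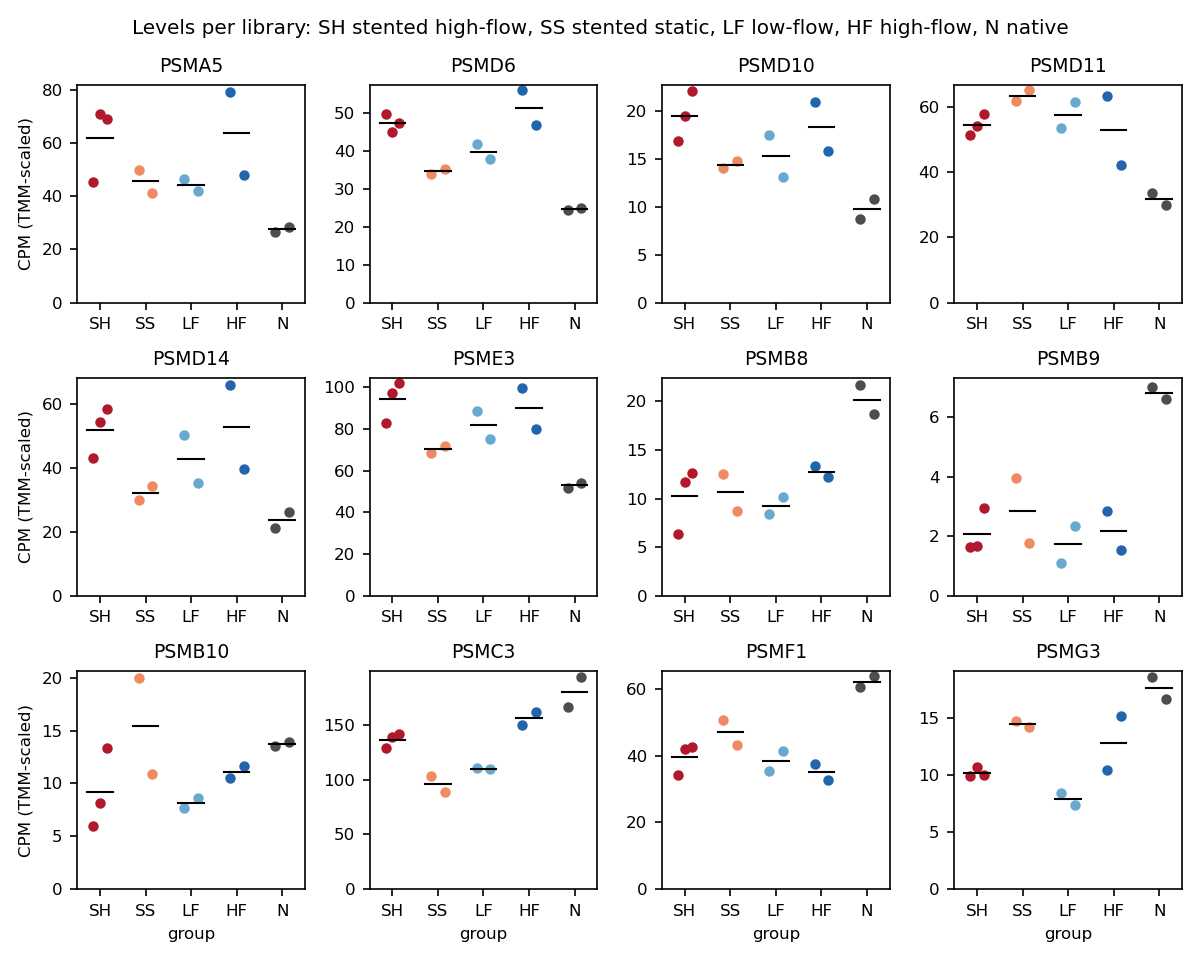
CPM on TMM-scaled library sizes per library (points) with group means (lines) for the 11 members called in the cultured mean and for PSMB10; SH is stented high-flow, SS stented static, LF low-flow, HF high-flow and N native. For the 11 called genes no cultured point overlaps the native points, while PSMB10 has 19.96 and 10.89 CPM in stented static around 13.5 and 13.9 in native.

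The activators are caps that open the core without ubiquitin. PSME3, the nuclear activator PA28-gamma (chr12:20028112-20035865), had 82.9, 97.3 and 102 CPM in stented high-flow, 68.6 and 71.9 in stented static, 88.4 and 74.9 in low-flow, 99.6 and 80.0 in high-flow vessels, and 51.6 and 54.2 in native libraries, without overlap with native. It rose by 0.66 ± 0.20 in the cultured mean (adjusted p = 0.0328) and by 0.83 ± 0.23 in stented high-flow (0.0223, edgeR). The cultured-mean call was lost without low-flow replicate 1 (0.0731), low-flow replicate 2 (0.0532), high-flow replicate 1 (0.0521) or replicate 2 of stented high-flow (0.0585), and the stented high-flow call without stented high-flow replicate 2 (0.0663).

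PSME1 and PSME2, the interferon-inducible PA28 subunits, are neighbours at chr7:75161830-75164531 and chr7:75154570-75157871, and they were not called in any comparison. PSME1 had 3.23, 5.72 and 12.7 CPM in stented high-flow, 8.30 and 5.05 in stented static, 5.05 and 9.68 in low-flow, 6.97 and 2.93 in high-flow vessels, and 5.08 and 3.85 in native libraries, so every cultured group overlapped native. PSME2 had 5.24, 9.71 and 9.09 CPM in stented high-flow, 15.6 and 7.30 in stented static, 7.92 and 7.03 in low-flow, 14.8 and 14.5 in high-flow vessels, and 10.9 and 11.3 in native libraries. High-flow lay above native, stented high-flow and low-flow lay below it, and the static values lay on either side. PSME4, the activator PA200, had log2 fold changes of 0.83 in stented high-flow, 0.14 in stented static, 0.78 in low-flow and 0.86 in high-flow, none of them called.

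The inhibitor PSMF1 and the PSMG chaperone, PSMG3, both fell. PSMF1 (PI31, chr17:34118324-34164723), which inhibits the core particle in vitro, had 34.2, 41.9 and 42.5 CPM in stented high-flow, 50.6 and 43.2 in stented static, 35.5 and 41.2 in low-flow, 37.6 and 32.8 in high-flow vessels, and 60.6 and 63.8 in native libraries. PSMG3 (chr3:1052185-1054716), which helps assemble the alpha ring, had 9.902, 10.66 and 10.02 CPM in stented high-flow, 14.7 and 14.2 in stented static, 8.39 and 7.34 in low-flow, 10.5 and 15.2 in high-flow vessels, and 18.6 and 16.6 in native libraries. Neither gene overlapped native in any cultured library. PSMF1 fell by 0.64 ± 0.18 in the cultured mean (adjusted p = 0.0255) and by 0.82 ± 0.25 in high-flow (0.0479), and PSMG3 fell by 0.67 ± 0.22 in the cultured mean (0.0467) and by 1.16 ± 0.30 in low-flow (0.0297, all edgeR). PSMF1 lost the cultured-mean call in 4 of 11 leave-one-out fits (without either native library, high-flow replicate 2 or low-flow replicate 1) and PSMG3 in 9 of 11 (all but those without high-flow replicate 2 or replicate 1 of stented high-flow), and both lost their single-group calls whenever 1 library of that group was left out.

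By group, stented high-flow had the most called members against native, with 7 higher and 1 lower of 39, where 24.3% of all genes were called (10.4% higher, 13.9% lower). Stented static had 1 higher and 1 lower, against 12.7% of all genes (5.54% higher, 7.19% lower). Low-flow had 0 higher and 1 lower, against 12.4% (5.03% higher, 7.38% lower), and high-flow had 4 higher and 1 lower, against 14.8% (5.94% higher, 8.86% lower). With TMM and edgeR over all 11 libraries the members' shares in either direction, 20.5%, 5.13%, 2.56% and 12.8%, were below those of all genes. For calls higher alone, the members' share was above that of all genes in stented high-flow (17.9%) and high-flow (10.3%). It was below that of all genes in stented static (2.56%) and low-flow (0%). For calls lower it was 2.56% in each group, below that of all genes. On library totals alone the called members were all higher. They were 8 in stented high-flow (20.5%, against 25.5% of all genes), 5 in stented static (12.8%, against 19.9%), 5 in low-flow (12.8%, against 14.3%) and 15 in high-flow (38.5%, against 16.8%). In high-flow the members' share was thus above that of all genes on library totals alone and below it in the main fit. Other choices moved it too. DESeq2 called 11 of 39 members and 21.7% of all genes there. The libraries of one count table alone gave 14 of 39 and 26%. Without stented high-flow replicate 2, 1 member (PSMD6) was called in stented high-flow, against 16.1% of all genes. The other groups have 2 libraries each. Calls of members lost when 1 of these is left out cannot be told apart from lost precision.

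In stented high-flow PSMD14 rose by 1.13 ± 0.30 (adjusted p = 0.0202), PSMD10 by 0.99 ± 0.28 (0.027), PSMD6 by 0.93 ± 0.22 (0.0114) and PSMD11 by 0.78 ± 0.24 (0.04, all edgeR). PSMD6 kept its call without any 1 of the 3 stented high-flow libraries, and the other 3 genes lost theirs without replicate 2. In stented static PSMD11 was the member that rose, by 1.00 ± 0.26 (adjusted p = 0.0331, edgeR), a call lost in all 4 leave-one-out fits. It was also the highest member in low-flow, at 0.85 ± 0.26 (adjusted p = 0.0565), where it was not called.

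The members' median log2 fold change against native was 0.43 in stented high-flow, 0.08 in stented static, 0.06 in low-flow and 0.51 in high-flow, against 0.06, 0.02, -0.00 and 0.02 for all genes in the same order. Both groups under the stronger flow had the higher medians. These 4 comparisons share the native libraries and are not independent. On library totals alone the members' medians were 0.58, 0.50, 0.33 and 0.72 and those of all genes 0.21, 0.43, 0.27 and 0.24, in the same order. The stented static median turned to -0.07 without stented static replicate 1 and was 0.02 without native replicate 1. The stented high-flow median was 0.25 without its replicate 3, and the low-flow median was 0.13 without native replicate 2 and 0.12 without low-flow replicate 2.

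**Figure D4:**
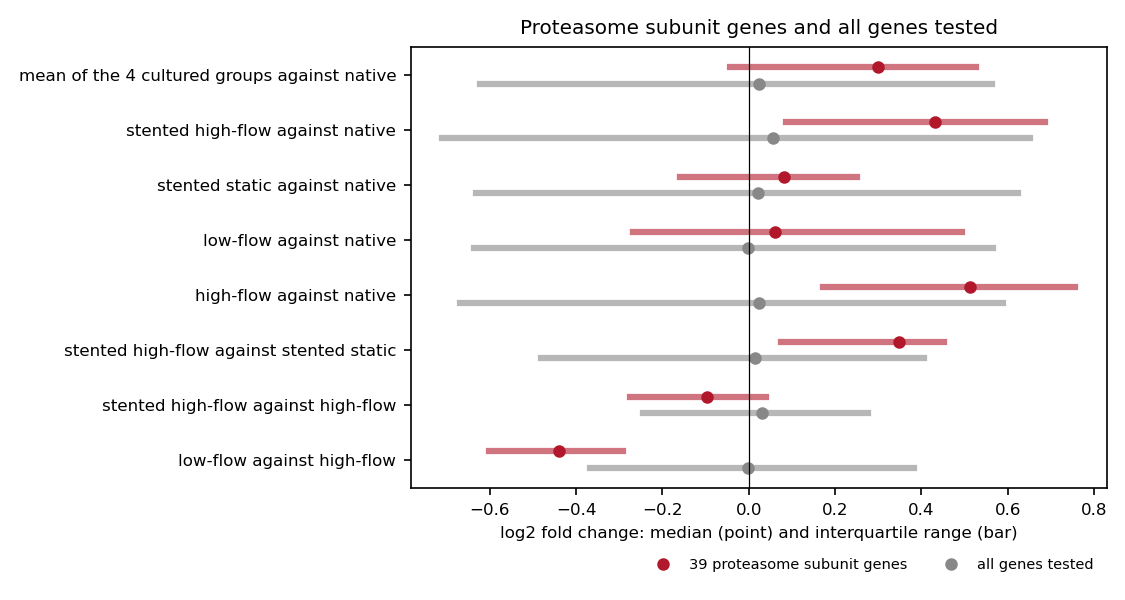
Median (points) and interquartile range (bars) of the log2 fold change of the 39 members (red) and of all 15348 genes tested (grey) in the 8 comparisons; the first group named in each is set against the second. The members' median is 0.35 for stented high-flow against stented static and -0.44 for low-flow against high-flow, while that of all genes stays between -0.00 and 0.06 in all 8.

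Low-flow against high-flow sets vessels under the weaker flow beside vessels under the stronger flow, both without a stent. By edgeR 0 of 39 members were called, against 0.104% of all genes. An unadjusted edgeR p under 0.05 was found for 8 members (20.5% of members, against 8.05% of all genes). DESeq2 and limma-voom also called 0 members. Even so 35 of 39 members had a log2 fold change below 0, as 50.1% of all genes did, and in 27 of 39 both low-flow libraries were below both high-flow ones, as in 22.3% of all genes. The median was -0.44 for members and -0.00 for all genes, and it stayed between -0.37 and -0.48 when any 1 library was left out. All 5 constitutive beta-ring genes were lower without overlap, at -0.60 to -0.92.

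PSMB3 had 45.4 and 42.1 CPM in low-flow and 78.9 and 87.2 in high-flow, a log2 fold change of -0.92 ± 0.33 (adjusted p = 0.566, edgeR). PSMB4, another beta subunit, had 80.3 and 76.3 CPM in low-flow and 131 and 148 in high-flow (-0.83 ± 0.31, adjusted p = 0.582), and PSMB1, a beta subunit too, had 71.0 and 62.6 CPM against 118 and 113 (-0.79 ± 0.26, adjusted p = 0.522). PSMB7 differed by -0.62, PSMB8 by -0.46, PSMB9 by -0.34 and PSMB10 by -0.44. PSME1 to PSME4 differed by 0.58, -0.97, -0.14 and -0.08, so the activators did not move as a block. Within low-flow and within high-flow there were 2 libraries each, and no member passed the test. Summed markers of macrophages were higher in low-flow without overlap (1566 and 1719 against 961.8 and 552.3 CPM). So were those of smooth muscle (10630 and 10970 against 3256 and 9595) and lymphocytes (43.0 and 55.2 against 32.5 and 36.6). Those of endothelium, adventitial fibroblasts, cardiomyocytes and adipocytes overlapped. The part of cell types in these differences was not tested.

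Stented high-flow against stented static sets stented vessels under the stronger flow beside stented vessels without flow. By edgeR 0 of 39 members were called, against 2.85% of all genes. An unadjusted edgeR p under 0.05 was found for 5 members (12.8% of members, against 19.1% of all genes). DESeq2 and limma-voom called 0 members as well. The log2 fold change was above 0 for 30 of 39 members and for 50.9% of all genes. Higher without overlap were 14 of 39 members and 14.4% of all genes. The median was 0.35 for members and 0.01 for all genes. On library totals alone these were 0.08 and -0.25. Without stented static replicate 2 the members' median was 0.23.

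All 6 alpha-ring genes, all 5 constitutive beta-ring genes and all 6 ATPases were above 0 in that comparison, and all 3 immunosubunits were below 0; on library totals alone 1 ATPase was not above 0. PSMB10 differed most, at -0.75 ± 0.38 (adjusted p = 0.312, edgeR), and the largest positive difference was that of PSMA1, with 67.3, 76.6 and 79.3 CPM in stented high-flow and 44.5 and 45.9 in stented static (0.72 ± 0.24, adjusted p = 0.13, edgeR). PSMB7 differed by 0.54, PSMB8 by -0.06 and PSMB9 by -0.45, and PSME1 to PSME4 by 0.12, -0.51, 0.42 and 0.69. Cell type markers moved with this comparison. Adipocyte markers were below 0 in 9 of 9 (6 called lower), macrophage markers in 18 of 20 (2 called lower), lymphocyte markers in 11 of 12 (1 called lower) and endothelial markers in 13 of 15 (0 called by edgeR, 11 at an unadjusted p under 0.05), as were 49% of all genes. Smooth muscle markers were above 0 in 12 of 14, with 1 called higher. Of all genes, 1.18% were called higher and 1.67% lower. The part of these cell types was not tested.

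Both static libraries carry the d suffix of 3, and its part in these differences cannot be told apart from that of flow.

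Stented high-flow against high-flow sets vessels with a stent beside vessels without one under the same flow mark. By edgeR 0 of 39 members and 0% of all genes were called. An unadjusted edgeR p under 0.05 was found for 1 member (2.56% of members, against 3.04% of all genes). DESeq2 and limma-voom called 0 members. The median was -0.10 for members and 0.03 for all genes, and the members' median was -0.06 without high-flow replicate 1 and -0.16 without high-flow replicate 2. PSME2 differed most, with 5.24, 9.71 and 9.09 CPM in stented high-flow and 14.8 and 14.5 in high-flow (-0.87 ± 0.37, adjusted p = 1, edgeR). PSMB7 differed by -0.38, PSMB8 by -0.32, PSMB9 by -0.06 and PSMB10 by -0.27, and PSME1, PSME3 and PSME4 by 0.55, 0.07 and -0.03. The groups with and without a stent were deposited in separate count tables, whose shared native columns were identical. A difference in handling between these groups could not be told apart from the stent.

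Interferon signalling induces the immunosubunits, but its part in their changes here was not tested. In the list of its components and target genes, of which 24 of 28 could be tested, 7 were called lower and 1 higher in the cultured mean, against 15.9% and 9.79% of all genes, and 10 of the 24 had a log2 fold change above 0. IRF1, the interferon-responsive factor known to drive PSMB8, PSMB9 and PSMB10, had 11.4, 18.1 and 24.7 CPM in stented high-flow, 21.3 and 21.9 in stented static, 15.2 and 23.7 in low-flow, 16.9 and 16.5 in high-flow vessels, and 172.6 and 98.5 in native libraries. It fell by 2.84 ± 0.26 (adjusted p = 3.59e-05, edgeR), and GBP1, an interferon-induced GTPase, by 2.40 ± 0.22 (3.9e-05). Both calls held in all 11 leave-one-out fits. The chemokine CXCL9 was at 0 to 0.474 CPM in cultured libraries and at 4.04 and 7.88 in native ones, and CXCL10 fell by 2.71 ± 0.67 (adjusted p = 0.0132), a call lost without either native library (0.0602 and 0.134). The 1 gene that rose was the receptor chain IFNGR2 (1.07 ± 0.25, adjusted p = 0.0105), lost without either native library (0.107 and 0.108).

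The MHC class I peptide loading list holds 16 genes, of which 9 were matched in the count tables. Of these 2 rose and 1 fell in the cultured mean, against 9.79% of all genes called higher and 15.9% called lower. NLRC5, the transactivator of MHC class I and of PSMB9, had 2.22, 1.85 and 1.69 CPM in stented high-flow, 11.4 and 7.12 in stented static, 3.68 and 4.33 in low-flow, 5.04 and 4.67 in high-flow vessels, and 21.7 and 13.2 in native libraries. It fell by 2.01 ± 0.27 (adjusted p = 0.000398, edgeR) and kept the call in all 11 leave-one-out fits. It was also lower in stented high-flow than in stented static (-2.27 ± 0.36, adjusted p = 0.0118), where 1 of 5 leave-one-out fits lost the call (0.0816). The chaperones CALR and PDIA3, which act in the endoplasmic reticulum beyond peptide loading, rose by 1.01 ± 0.26 and 0.98 ± 0.27 (adjusted p = 0.0151 and 0.0225), calls lost without native replicate 1 (0.186 and 0.225) or native replicate 2 (0.0835 and 0.0958). The peptide transporter genes TAP1 and TAP2, which lie beside PSMB9 and PSMB8 in mammals, were not called (-0.19 ± 0.30 and -0.04 ± 0.28, adjusted p = 0.689 and 0.93).

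**Figure D5:**
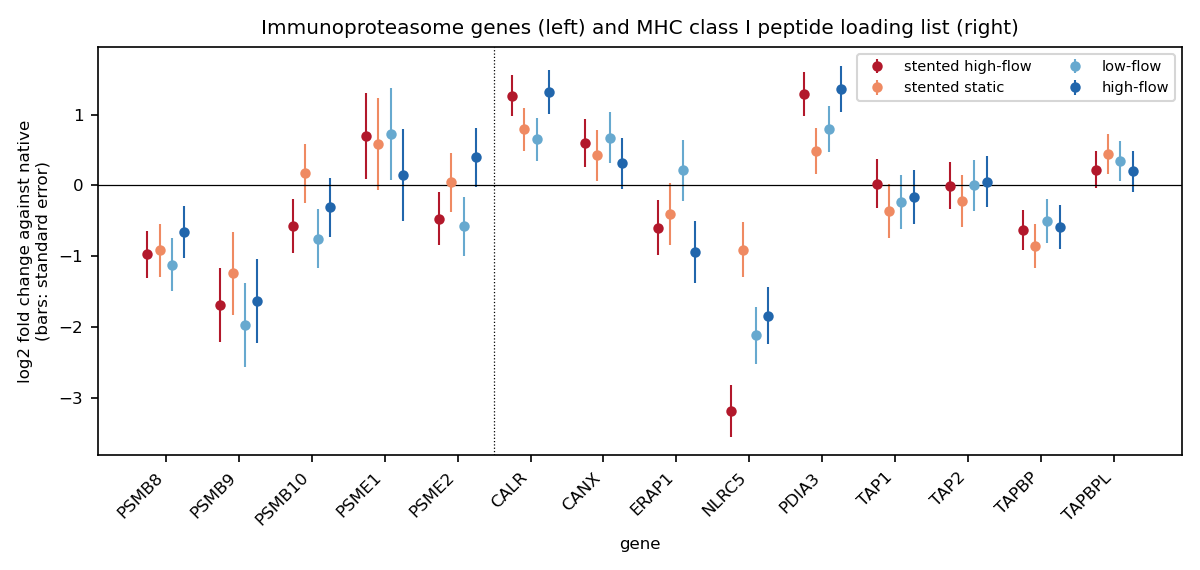
Log2 fold change against native (points) with standard errors (bars) in the 4 cultured groups for the immunosubunit and PA28 activator genes (left of the dotted line) and the MHC class I peptide loading list (right). PSMB8, PSMB9 and NLRC5 are below 0 in all 4 groups, CALR and PDIA3 are above 0, and TAP1 and TAP2 lie near 0.

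In the other lists the share called in the cultured mean was taken in either direction, against 25.7% of all genes. It was 25% for the NFE2L1 pathway and proteasome transcription, 17.6% for assembly factors and 14.3% for ubiquitin, E1 and E2 genes. For VCP and its cofactors it was 5.88%, and for ubiquitin ligases of muscle 23.1%. The transcription factor NFE2L1 drives proteasome subunit genes. Of 16 genes listed for its pathway or for proteasome transcription, 2 rose (MAFG, a partner of NFE2L1, and STAT3). The 2 that fell were NFE2L3, a relative of NFE2L1, and FBXW7, a ubiquitin ligase subunit. The log2 fold changes of these 4 genes were 1.15 ± 0.33, 0.85 ± 0.22, -2.03 ± 0.41 and -0.77 ± 0.21 (adjusted p = 0.0265, 0.0177, 0.00427 and 0.0221, edgeR). MAFG, STAT3 and FBXW7 lost the call without either native library (0.102 to 0.215) and NFE2L3 without native replicate 1 (0.118), and FBXW7 also without low-flow replicate 2 (0.0519) and on library totals alone (0.104). NFE2L1 itself was at 0.09 ± 0.24 (adjusted p = 0.82). NFE2L3 was also lower in stented high-flow than in stented static (-2.45 ± 0.56, adjusted p = 0.0441), a call lost in all 5 leave-one-out fits.

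Of 17 assembly factors and associated proteins 1 rose and 2 fell. ZFAND5, a proteasome-binding activator, had 68.2 to 143.7 CPM in cultured libraries against 430.5 and 498.1 in native ones and fell by 2.15 ± 0.23 (adjusted p = 9.16e-05, edgeR), a call kept in all 11 leave-one-out fits. PITHD1, a proteasome-associated protein, fell by 0.89 ± 0.17 (0.00315), lost without native replicate 2 (0.0717), and ZFAND2A, an arsenite-inducible proteasome-binding protein, rose by 1.41 ± 0.34 (0.0122), lost without either native library (0.104 and 0.127). POMP, the core-particle chaperone, was at 0.35 ± 0.21 (adjusted p = 0.248).

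Of 21 ubiquitin, E1 and E2 genes 2 rose and 1 fell. UBE2C, the mitotic E2, rose by 1.81 ± 0.55 and UBE2E1, another E2, by 0.86 ± 0.28 (adjusted p = 0.0327 and 0.0467, edgeR). Both calls were lost without native replicate 1 (0.275 and 0.373), native replicate 2 (0.0886 and 0.0677), high-flow replicate 1 (0.0547 and 0.0741) or low-flow replicate 1 (0.0555 and 0.0829). The UBE2E1 call was also lost without stented static replicate 2 (0.0583), replicate 2 of stented high-flow (0.0729) or low-flow replicate 2 (0.0682), and with RLE scaling, the size factors of DESeq2 (0.0505). Of 17 genes of VCP, the unfoldase that hands substrates to the proteasome, and its cofactors, 1 rose (SELENOS, 0.70 ± 0.23, adjusted p = 0.0435), lost in 7 of 11 leave-one-out fits. Of 13 ubiquitin ligases of muscle 1 rose (SMURF1, 1.59 ± 0.34, adjusted p = 0.00568, lost without native replicate 2 at 0.0964) and 2 fell, ASB2 (-2.45 ± 0.64, 0.0172, lost without either native library) and FBXO40 (-3.97 ± 0.42, 8.37e-05, kept in all 11). No gene of these lists was called in low-flow against high-flow or in stented high-flow against high-flow by edgeR.

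Cell type markers moved with the comparison of cultured and native arteries. In the cultured mean 9.79% of all genes were called higher and 15.9% lower. Summed smooth muscle markers stood at 6520 to 10040 CPM in stented high-flow, 1259 and 4549 in stented static, 10630 and 10970 in low-flow, 3256 and 9595 in high-flow vessels, and 43080 and 55890 in native libraries, with 12 of 14 called lower in the cultured mean and 0 higher. Summed macrophage markers stood at 589.8 to 1105 CPM in stented high-flow, 3383 and 1567 in stented static, 1566 and 1719 in low-flow, 961.8 and 552.3 in high-flow vessels, and 636.4 and 618.1 in native libraries, with 6 of 20 called higher and 1 lower. Summed lymphocyte markers, of which 6 of 12 were called lower and 0 higher, stood at 18.5 to 31.6 CPM in stented high-flow, 96.4 and 32.2 in stented static, 43.0 and 55.2 in low-flow, 32.5 and 36.6 in high-flow vessels, and 66.4 and 57.4 in native libraries. The T cell gene CD3E had 10 counts over the 9 cultured libraries and 64 over the 2 native ones and was at 0 in 7 libraries, and the B cell gene MS4A1 was at 0 in 10.

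Summed endothelial markers, with 1 of 15 called higher and 7 lower, ran from 804 to 2035 CPM in cultured libraries and were 1324 and 1473 in native ones. Adventitial fibroblast markers had 3 of 13 called higher and 6 lower, cardiomyocyte markers 0 of 6 higher and 4 lower, and adipocyte markers 0 of 9 higher and 6 lower. The shares for all genes were 9.79% higher and 15.9% lower. The summed adipocyte markers stood at 39.5 to 103.4 CPM in stented high-flow, 2744 and 260.8 in stented static, 201.3 and 297.4 in low-flow, 72.6 and 213.0 in high-flow vessels, and 3108 and 1986 in native libraries. The summed cardiomyocyte markers differed within native, at 1296 and 101.1 CPM. The part of these cell types in the changes of the proteasome genes was not tested.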

How the data were processed

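Per the labels' protocols, total RNA from flash-frozen porcine coronary arteries was column-purified with DNase treatment and sequenced in paired ends. The submitters' processing notes name FastQC, Trimmomatic, DESeq2 and Sscrofa11.1; the sources used here do not name the aligner, the counter or the annotation release. The authors deposited raw counts per gene in 2 tables, one with stented and native and one with unstented and native libraries, whose native columns were identical, and they were joined. The authors also deposited lists of genes with log2 fold changes; these hold 0 members by symbol and none of their values is used.

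The joined counts were tested in R 4.3.3 with edgeR 4.0.16 (quasi-likelihood F-test, 1 fit over 5 groups, TMM, filterByExpr, which all 39 members passed, Benjamini-Hochberg over 15348 genes, threshold 0.05). The cultured mean weights the 4 cultured groups equally. CPM carry no offset. The 3 counts taken as a detection limit equal 0.105 to 0.215 CPM, for counting error only. Symbols came from the gene name table, coordinates from RefSeq Sscrofa11.1. The fit was tested on simulated counts. Alternatives were DESeq2 1.42.0, limma-voom (limma 3.58.1), other scalings and filters, a replicate block, fewer groups, 1 count table and leaving out each library.

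Members and lists were chosen with earlier results of these data known. Named genes are up to 8 called members per comparison with the largest changes, the immunosubunits, PSMB7 and the activators, the highest and lowest member, and up to 4 called genes per list. Other genes named, among them PSMC2, PSMC5, PSMB1, PSMB4, IFNGR2, TAP1, TAP2, NFE2L1, POMP, CD3E and MS4A1, were chosen after their values were seen. Ratios to PSMB5 and PSMB6 and a promoter search were planned and not made. Some genes of the lists are counted but not reported here by name.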

Additional observations from a re-analysis of the deposited data

Results flagged for a closer look

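For 5 members, every library of one cultured group lay above both native libraries while every library of another lay below both. This holds for TMM-scaled CPM. The differences between groups were judged by this opposite movement, not by a test, and the groups share the native libraries. The share of all genes with such opposite movement was not computed. Lying on one side of native was common: of 15348 genes tested, 4808 lay above both native libraries in high-flow. Below both lay 4571 in stented static, 5284 in low-flow and 4231 in stented high-flow. PSMB7, a catalytic beta subunit, had a log2 fold change against native of 0.56 in high-flow and -0.36 in stented static. PSMB1, a structural beta subunit, stood at 0.63 in high-flow, -0.15 in stented static and -0.17 in low-flow. PSMA4, an alpha subunit, stood at 0.42 in high-flow and -0.42 in stented static. PSMD13, a lid subunit, stood at 0.26 in high-flow and -0.11 in low-flow. PSME2, an interferon-inducible activator subunit, stood at 0.39 in high-flow, -0.47 in stented high-flow and -0.58 in low-flow. The opposite signs were also found with RLE scaling. On library totals alone, PSMB7 in stented static (0.06), PSMB1 in stented static (0.27) and low-flow (0.10) and PSMD13 in low-flow (0.16) turned positive, PSMA4 in stented static was at -0.01, and PSME2 kept its signs, at 0.61 in high-flow, -0.34 in stented high-flow and -0.31 in low-flow. Where a direct comparison was made by edgeR, none passed: low-flow against high-flow gave adjusted p of 0.522 for PSMB1, 0.744 for PSMD13 and 0.614 for PSME2, and stented high-flow against high-flow gave 1 for PSME2.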

How the results depend on the processing

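No call reversed its direction under any alternative. Against 5 called members in high-flow, DESeq2 gave 11, 14 came from the libraries of one count table alone and 15 from library totals alone. Against 1 in low-flow, DESeq2 gave 8, limma-voom 2, at least 10 counts in every library 2, only the groups compared 13, while 4 came from one count table alone and 5 from library totals alone. Against 2 in stented static, no filter gave 1, only the groups compared 0, the libraries of one count table gave 1 and library totals alone 5. Only the groups compared gave 5 against 8 in stented high-flow, and no filter gave 6 against 11 in the cultured mean. Leaving out stented high-flow replicate 1, 2 or 3 gave 7, 1 and 8 in stented high-flow, against 26.7%, 16.1% and 20.6% of all genes. In the cultured mean it gave 12, 6 and 10, against 29.4%, 22.8% and 27.4%. Leaving out a library of any other group leaves 1 in it, so calls lost there cannot be told apart from lost precision. The replicate number as a block gave 1 in stented high-flow (against 16.2% of all genes), 0 in stented static (11.9%) and 0 in low-flow (11%). It gave 3 in high-flow (14.1%) and 6 in the cultured mean (23.4%). Deviations of same-numbered libraries from their group means correlated at -0.329 to 0.183 over 20 pairs. In a group of 2 libraries these deviations mirror each other, so values repeat among the pairs. They cannot decide whether the numbers pair the libraries. The share of all genes called moved too. In high-flow it was 21.7% with DESeq2, 26% in one count table and 16.8% on library totals, against 14.8%. In low-flow it was 18.9% with DESeq2, 13.9% with limma-voom, 11.2% with at least 10 counts in every library, 33.5% with only the groups compared, 22.7% in one count table and 14.3% on library totals, against 12.4%. In stented static, against 12.7% in the main fit, it was 11.3% with no filter and 11.8% with only the groups compared. It was 8.19% there in one count table and 19.9% on library totals. With only the groups compared it was 23% in stented high-flow, against 24.3%. With no filter it was 21.1% in the cultured mean, against 25.7%. The causes of these shifts were not tested. With 2 libraries in most groups, the number of libraries limits the precision.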

Other observations

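Some members varied within groups of cultured libraries, as seen after their values were known. PSMC6, an ATPase, had 103, 87.4 and 49.9 CPM in stented high-flow, 35.5 and 64.0 in stented static, and 71.3 and 49.2 in low-flow. PSME4 had 121, 93.1 and 62.4 CPM in stented high-flow, 42.1 and 71.8 in stented static, and 109 and 69.0 in low-flow. The lowest value of both genes was in stented high-flow replicate 3, stented static replicate 1 and low-flow replicate 2, which also had the lowest mitochondrial share of their groups, at 3.31%, 3.19% and 4.23%. In high-flow both genes differed little between libraries, with 101 and 94.2 CPM for PSMC6 and 94.3 and 93.5 for PSME4, and the lower values were in replicate 2, which had the higher mitochondrial share (8.65%, against 4.85% in replicate 1). The part of RNA quality or of the mitochondrial share in these values was not tested.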
